A study of Mus musculus with 16 samples.

Results

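The 10 genes described here encode enzymes and transporters of serine, glycine and folate metabolism: Phgdh, Psat1, Psph, Shmt1, Gldc, Aldh1l1, Aldh1l2, Srr, Slc1a4 and Slc7a10. They were taken by symbol from the 24033 gene rows used in each of 16 expression tables, and each symbol matched a single row. The libraries came from 4 adult mice at postnatal day 63, male and female, numbered 970, 971, 974 and 977, and every animal gave all 4 kinds of library. The kinds were hippocampal IP (Hip IP), hippocampal input (Hip input), striatal IP (Str IP) and striatal input (Str input). An IP library was made from RNA bound to ribosomes carrying a hemagglutinin tag, and an input library from the cleared lysate before precipitation. All animals carried 1 copy of Aldh1l1-creERT2 and were heterozygous for Ribotag, an allele that tags a ribosomal protein in cells with Cre, and there was no group without these alleles. Their background was FVB crossed back to C57/Bl6N for 3 generations, about 88% C57/Bl6N. The promoter of Aldh1l1 drives the Cre, so the level of Aldh1l1 itself in the IP follows from the way the cells were tagged. The labels name no drug treatment of the animals.

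Serine is made from a glycolytic intermediate in a pathway of 3 enzymes, in which PHGDH acts first, PSAT1 next and PSPH last. Serine hydroxymethyltransferases move a carbon from serine to folate and leave glycine, and the glycine cleavage system breaks glycine down and passes another carbon to folate. In the brain serine is also turned into D-serine, which together with glutamate opens NMDA receptors, and astrocytes are known as a main site of serine synthesis there.

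Between 4150000 and 22650000 fragments per library were estimated to have been counted, from the step size of the lowest values, with 4150000 to 8970000 in striatal inputs and 13970000 to 22650000 in the IPs. Levels are given as scaled FPKM, the deposited FPKM (fragments normalised for gene length and depth) divided by a scaling factor per library (0.737 to 1.267). The summed level of 8 astrocyte markers was 10474 to 14398 in hippocampal IP against 595 to 768 in hippocampal input, and 6455 to 11976 in striatal IP against 524 to 625 in striatal input. The summed level of 8 neuron markers was 85.7 to 156 in hippocampal IP against 2387 to 2509 in hippocampal input, and 71.9 to 125 in striatal IP against 1433 to 1999 in striatal input. No marker of these lists was at 0 in any library. Of the other markers tested, 7 of 8 of oligodendrocytes, 2 of 3 of their precursors, 7 of 8 of microglia, 5 of 5 of endothelial cells and 2 of 3 of mural cells were lower in IP in each region. Higher in IP were 1 mural marker in each region and 1 oligodendrocyte marker in hippocampus. Gfap, an astrocyte filament gene, was higher in IP by a log2 fold change of 4.15 in hippocampus and 3.92 in striatum, and Crym was higher in striatal than in hippocampal IP by 4.95, each past an adjusted p of 0.05. Rpl22, the gene that carries the Ribotag allele, was at 3.45 in hippocampal IP and 3.77 in hippocampal input, and at 3.14 in striatal IP and 3.17 in striatal input.

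Promoters are shown because 7 of the 10 genes rose together in the IPs of both regions and Srr fell. RefSeq promoters (GRCm38.p6, the 250 bases before a transcription start) matched 9 of the 10 genes, with 2 starts for Psat1, and Aldh1l2 had no entry. The stretches below leave out bases that an annotated exon covers, and capitals mark the CCAAT box read on either strand (CCAAT or ATTGG). Aldh1l1 lies at chr6:90550543-90550788 on the plus strand. The others are on the minus strand: Phgdh at chr3:98339991-98340219, the first start of Psat1 at chr19:15925060-15925309, Gldc at chr19:30175442-30175691 and Srr at chr11:74926004-74926198. Of these genes, the starts of Aldh1l1, Phgdh and Psat1 lie inside the annotated genes, with 21 exonic bases next to the Phgdh start.
Aldh1l1: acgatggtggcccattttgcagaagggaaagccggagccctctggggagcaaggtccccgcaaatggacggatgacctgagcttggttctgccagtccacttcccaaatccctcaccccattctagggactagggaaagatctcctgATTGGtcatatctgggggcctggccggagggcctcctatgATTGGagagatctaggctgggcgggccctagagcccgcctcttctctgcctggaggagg
Phgdh: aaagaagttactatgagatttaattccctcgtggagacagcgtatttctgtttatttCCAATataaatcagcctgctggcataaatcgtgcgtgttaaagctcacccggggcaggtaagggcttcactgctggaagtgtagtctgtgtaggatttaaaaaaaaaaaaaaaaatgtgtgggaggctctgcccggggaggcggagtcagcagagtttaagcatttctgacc
Psat1: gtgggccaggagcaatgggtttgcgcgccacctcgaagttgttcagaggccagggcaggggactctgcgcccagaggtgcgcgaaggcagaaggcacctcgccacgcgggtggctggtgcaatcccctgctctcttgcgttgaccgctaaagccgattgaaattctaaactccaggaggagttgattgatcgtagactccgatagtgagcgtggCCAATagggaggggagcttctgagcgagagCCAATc
Gldc: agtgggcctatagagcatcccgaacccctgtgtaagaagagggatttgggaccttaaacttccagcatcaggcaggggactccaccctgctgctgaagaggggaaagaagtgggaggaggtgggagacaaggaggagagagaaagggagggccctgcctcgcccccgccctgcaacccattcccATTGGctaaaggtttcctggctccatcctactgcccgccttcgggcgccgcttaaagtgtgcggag
Srr: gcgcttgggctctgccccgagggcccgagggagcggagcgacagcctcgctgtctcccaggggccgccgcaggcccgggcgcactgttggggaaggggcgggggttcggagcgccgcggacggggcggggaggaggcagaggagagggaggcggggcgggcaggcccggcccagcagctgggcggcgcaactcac

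A CCAAT box was found within 250 bases before a start in 7 of the 9 genes, all but Srr and Slc7a10, and in 33.8% of 32851 promoters of the same length. Its matches lay 103 and 63 bases before the Aldh1l1 start, 36 and 6 before the first Psat1 start, and 66 before the Gldc start. Phgdh had a match 193 bases before the start, whose last base is the first of a TATAAA match, and another 23 bases before it, outside the printed stretch. Of the 7 genes that rose in both regions, Aldh1l1, Phgdh, Psat1, Psph, Slc1a4 and Gldc held a match and Slc7a10 did not. Srr, which fell, held none. Shmt1, with a match 47 bases before its start, did not pass in either region. A part of the box in the change in IP was not tested. The GGGCGG letters of SP1 sites, searched on both strands, were in 8 of the 9 genes and in 32.7% of all promoters, with 4 matches each in Srr and Shmt1. The 9 genes are counted by a match before any start, and the shares are per promoter. For Psat1 the CCAAT matches lay before its first start alone, and the GGGCGG match before its other start alone. None of the 9 held TGATGNAA (ATF4), AACAATGG (SOX9), the full NFI palindrome or the E-box CACGTG, which were in 3.45%, 0.901%, 0.0365% and 6.02% of all promoters. The NRF1 palindrome was in Slc7a10 alone among the 9, and in 0.782% of all promoters. These libraries do not measure binding at these letters.

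**Figure D1:**
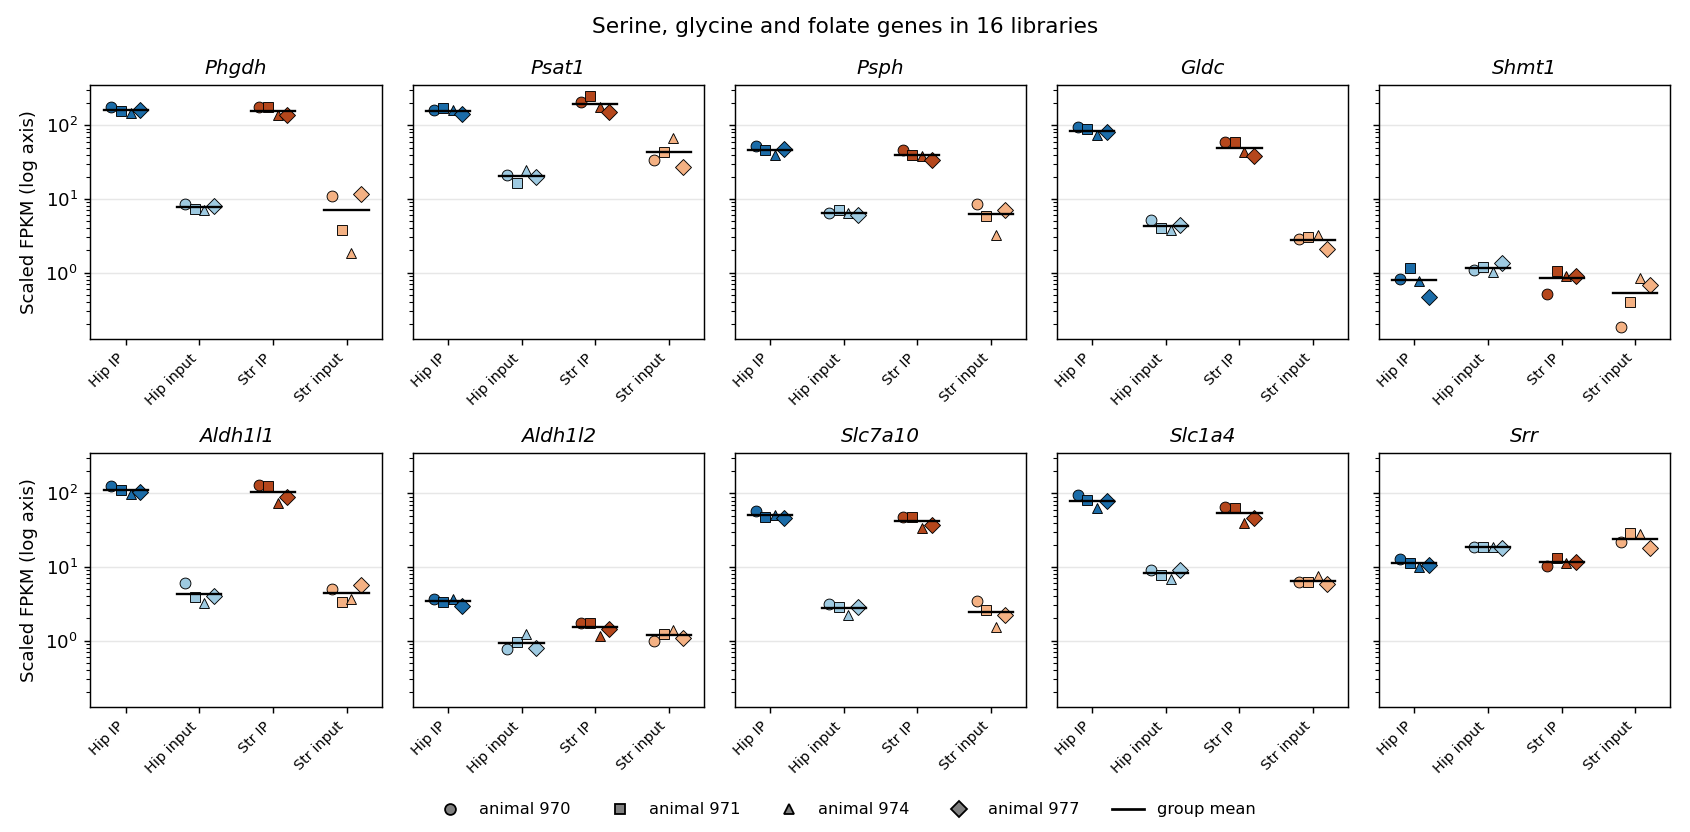
Levels of the 10 genes in all 16 libraries. Each panel is a gene, the y axis is scaled FPKM on a log scale, each symbol is an animal and the bar is the group mean. Of the 10 genes, 7 sit above input in every IP library of both regions, Srr sits below, and Shmt1 stays between 0.182 and 1.34 throughout.

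The first question was which of these genes astrocyte ribosomes carried above the tissue as a whole. In hippocampus 8 of the 10 genes were higher in IP than in input, Srr was lower and Shmt1 did not pass the test, against a background of 31.8% of all 13449 tested genes that were higher, 33.4% that were lower and 65.2% in either direction. In striatum 7 were higher, Srr was lower, and Shmt1 and Aldh1l2 did not pass, against 32.6% of tested genes higher, 32.5% lower and 65.1% in either direction. IP and input did not overlap for 9 of the 10 genes in hippocampus, where 69.6% of tested genes did not overlap. In striatum they did not overlap for 8, against 52.1%. The median log2 fold change of the 10 genes was 3.01 in hippocampus and 2.69 in striatum, and that of all tested genes was -0.05 and -0.01. Ranked among all tested genes by log2 fold change, the 7 genes that rose in both regions stood at or above the percentile 96.8 in hippocampus and 95.8 in striatum. Aldh1l1 is included in these counts, medians and ranks, although its level in IP follows from the way the cells were tagged. The 10 genes were also chosen with earlier results of these data known. Setting them against the shares of all tested genes is therefore a description and not a test. In tissue RNA, fewer cells of a type and less RNA per cell cannot be told apart.

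Phgdh (chr3:98313170-98339990, with this and the following gene positions from GENCODE vM21 on GRCm38), which encodes the first enzyme of serine synthesis, was among the most enriched genes of the table. It was at 179, 157, 146 and 164 scaled FPKM in the hippocampal IPs of animals 970, 971, 974 and 977, against 8.48, 7.38, 7.16 and 8.02 in their hippocampal inputs. Its striatal levels were 180, 179, 138 and 139 in IP, against 10.9, 3.82, 1.87 and 11.8 in input. The IP libraries were alike in both regions and far above every input, whereas the striatal inputs of animals 971 and 974 were well below the other striatal inputs. On the log2 scale, IP over input was 4.21 ± 0.34 (SE) in hippocampus, with adjusted p = 1.27e-08, and 4.55 ± 0.34 in striatum, with adjusted p = 6.50e-09 (limma, 4 libraries a group). Without those 2 striatal inputs the striatal value was 3.67, a description, since leaving out the lowest inputs lowers it. The ratio of IP to input within an animal was 20.4 to 21.3 in hippocampus and 11.8 to 73.9 in striatum, highest in animal 974, whose striatal input level rests on about 19 fragments.

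Psat1 (chr19:15904678-15947337), which encodes the aminotransferase of the pathway, had the highest mean level of the 10 genes in striatal IP and in the inputs of both regions. It was at 164, 170, 160 and 141 in hippocampal IP, against 21.2, 16.4, 24.9 and 19.8 in hippocampal input. Striatal libraries held it at 209, 247, 178 and 151 in IP, against 34.2, 42.8, 67.2 and 27.0 in input. All IP libraries were above all inputs, and the striatal input of animal 974 was the highest input. The log2 fold change was 2.90 ± 0.22 in hippocampus (adjusted p = 7.69e-09) and 2.23 ± 0.22 in striatum (adjusted p = 2.16e-07). The order of animals in striatal input was opposite for Psat1 and Phgdh: animal 974 was highest for Psat1 and lowest for Phgdh, animal 977 the reverse. The ratio of Phgdh to Psat1 was accordingly 0.0278 to 0.436 in striatal input, against 0.727 to 0.922 in striatal IP of the same animals.

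Psph (chr5:129765558-129787449), which encodes the phosphatase that completes the synthesis, was less abundant in IP than the other 2 enzymes. It was at 51.8, 46.8, 40.0 and 47.2 in hippocampal IP, against 6.44, 7.06, 6.4 and 5.99 in hippocampal input. In striatum it was at 45.7, 39.7, 38.4 and 33.6 in IP, against 8.62, 5.80, 3.25 and 7.0 in input. Every IP library lay above every input, and animal 974 again had the lowest striatal input. On the log2 scale, IP over input was 2.66 ± 0.19 in hippocampus (adjusted p = 2.71e-09) and 2.55 ± 0.19 in striatum (adjusted p = 5.94e-09). The 452 exonic bases that Psph shares with Cct6a on the other strand cannot be assigned without strand, since the library kit does not mark it. Cct6a did not pass the test in either region, at -0.12 and 0.12.

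Gldc (chr19:30098447-30175429) encodes the glycine decarboxylase of the cleavage system, the subunit that takes up glycine. It was at 95.3, 88.3, 73.5 and 80.5 in hippocampal IP, against 5.22, 4.02, 3.73 and 4.45 in hippocampal input. Its striatal levels were 59.2, 58.9, 42.8 and 38.8 in IP, against 2.88, 3.00, 3.24 and 2.08 in input. All 4 groups were separate, with no library of one within the range of another. The log2 fold change was 4.00 ± 0.15 in hippocampus (adjusted p = 8.88e-12) and 3.73 ± 0.15 in striatum (adjusted p = 3.07e-11). The other subunits of the system rose less. Gcsh, the lipoyl carrier, rose by 2.0 in hippocampus and 2.05 in striatum, and Amt, the aminomethyltransferase, by 1.17 and 1.13. Dld, a dehydrogenase shared with other mitochondrial complexes, rose by 0.59 in hippocampus and stood at 0.35 in striatum, with adjusted p = 0.0900.

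Shmt1 (chr11:60788104-60811718), the cytosolic serine hydroxymethyltransferase, was the scarcest of the 10 genes in both IPs. It was at 0.809, 1.16, 0.762 and 0.464 in hippocampal IP, against 1.09, 1.20, 1.03 and 1.34 in hippocampal input. Striatal libraries held it at 0.505, 1.05, 0.888 and 0.901 in IP, against 0.182, 0.393, 0.847 and 0.684 in input. The groups overlapped in both regions, and the lowest values rest on about 6 and 9 fragments. On the log2 scale, IP over input was -0.28 (95% interval -0.61 to 0.05) in hippocampus and 0.28 (-0.05 to 0.61) in striatum, both with adjusted p = 0.128. Shmt1 reached the minimum level of 1 FPKM in 4 libraries only through the 4 hippocampal inputs. Its mitochondrial counterpart Shmt2 rose, to 10.1 ± 0.947 in hippocampal IP against 1.70 ± 0.108 in hippocampal input, and to 9.18 ± 2.03 in striatal IP against 1.36 ± 0.336 in striatal input (SD, n = 4 each). The log2 fold change of Shmt2 was 2.04 (adjusted p = 3.06e-09) and 2.10 (adjusted p = 2.85e-09). The ratio of Shmt1 to Shmt2 was 0.0472 to 0.107 in hippocampal IP against 0.618 to 0.755 in hippocampal input, and 0.0450 to 0.13 in striatal IP against 0.115 to 0.624 in striatal input.

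Aldh1l1 (chr6:90486427-90600203) encodes the cytosolic 10-formyltetrahydrofolate dehydrogenase, an enzyme that returns folate carbon as carbon dioxide, and is a widely used astrocyte marker. It was at 126, 112, 98.1 and 106 in hippocampal IP, against 6.15, 3.90, 3.25 and 4.08 in hippocampal input. In striatum it was at 132, 128, 74.2 and 88.6 in IP, against 5.04, 3.32, 3.65 and 5.65 in input. IP and input were far apart, and the regions overlapped within each. The log2 fold change was 4.40 ± 0.20 in hippocampus (adjusted p = 2.86e-11) and 4.28 ± 0.20 in striatum (adjusted p = 7.10e-11), which checks the labels, as the Cre is expressed from this gene's promoter.

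Aldh1l2 (chr10:83487450-83534140), which encodes the mitochondrial form of the same enzyme, stayed low and was the only one of the 10 genes whose IP over input differed between regions by the test. It was at 3.64, 3.37, 3.71 and 2.98 in hippocampal IP, against 0.760, 0.963, 1.22 and 0.795 in hippocampal input. Its striatal levels were 1.74, 1.73, 1.17 and 1.43 in IP, against 0.994, 1.21, 1.41 and 1.10 in input. Hippocampal IP stood above all other libraries, and striatal IP and input overlapped. On the log2 scale, IP over input was 1.20 ± 0.12 in hippocampus (adjusted p = 1.58e-07) and 0.21 ± 0.12 in striatum (adjusted p = 0.137), and on the log2(scaled FPKM + 1) scale the fold of a low gene is understated: the ratio of means was 3.67 and 1.29. The ratio of Aldh1l1 to Aldh1l2 was 26.5 to 35.6 in hippocampal IP against 2.67 to 8.09 in hippocampal input, and 62.1 to 76.1 in striatal IP against 2.60 to 5.15 in striatal input. Aldh1l2 shares 1056 exonic bases with D10Wsu102e on the other strand, and reads there cannot be told apart. D10Wsu102e did not pass the test in any of the comparisons, and was at 10.1 in hippocampal IP and 9.16 in striatal IP.

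Slc7a10 (chr7:35186385-35201114) encodes Asc-1, an exchanger of small neutral amino acids that carries D-serine, glycine and L-serine. It was at 58.4, 48.0, 50.9 and 46.8 in hippocampal IP, against 3.14, 2.86, 2.23 and 2.87 in hippocampal input. Striatal libraries held it at 48.2, 48.4, 33.6 and 37.1 in IP, against 3.40, 2.58, 1.54 and 2.22 in input. All IP libraries were above all inputs, with the lowest input in animal 974, where the value rests on about 13 fragments. The log2 fold change was 3.79 ± 0.16 in hippocampus (adjusted p = 1.85e-11) and 3.65 ± 0.16 in striatum (adjusted p = 5.51e-11). Lrp3, which shares 377 exonic bases with Slc7a10 on the other strand, fell in IP, by 0.86 in hippocampus and by 0.89 in striatum. Slc3a2, the heavy chain with which Asc-1 pairs, rose by 2.22 in hippocampus and by 2.44 in striatum.

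Slc1a4 (chr11:20302180-20332713) encodes ASCT1, a sodium-dependent exchanger of serine, alanine and cysteine. It was at 94.5, 80.4, 64.3 and 78.2 in hippocampal IP, against 9.21, 7.81, 6.82 and 9.13 in hippocampal input. In striatum it was at 65.2, 63.1, 40.1 and 45.8 in IP, against 6.16, 6.34, 7.48 and 5.96 in input. Every IP library exceeded every input, and animal 974 had the lowest IP in each region. On the log2 scale, IP over input was 3.11 ± 0.16 in hippocampus (adjusted p = 8.26e-11) and 2.84 ± 0.16 in striatum (adjusted p = 3.40e-10).

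Srr (chr11:74906359-74925948), which encodes the racemase that makes D-serine from L-serine, was the only one of the 10 genes that fell in IP. It was at 12.7, 11.4, 10.1 and 10.6 in hippocampal IP, against 18.6, 18.8, 18.9 and 18.2 in hippocampal input. Its striatal levels were 10.4, 13.3, 11.5 and 11.6 in IP, against 22.0, 29.2, 28.1 and 17.9 in input. The IP libraries of both regions fell in the same narrow range below every input, and the hippocampal inputs were nearly equal. The log2 fold change was -0.69 ± 0.14 in hippocampus (adjusted p = 0.000268) and -0.97 ± 0.14 in striatum (adjusted p = 9.26e-06). The ratio of IP to input was 0.533 to 0.681 in hippocampus and 0.408 to 0.649 in striatum. Over the 8 neuron markers, the median IP level in an animal was 4.71% to 10.2% of input in hippocampus and 6.67% to 13.8% in striatum. Srr shares 1240 exonic bases with Tsr1 on the other strand, and Tsr1 also fell, by 0.85 and 1.26, so the share of its reads in the value of Srr cannot be told apart. The ratio of Phgdh to Srr was 13.8 to 15.6 in hippocampal IP against 0.378 to 0.456 in hippocampal input, and 12 to 17.2 in striatal IP against 0.0664 to 0.657 in striatal input.

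**Figure D2:**
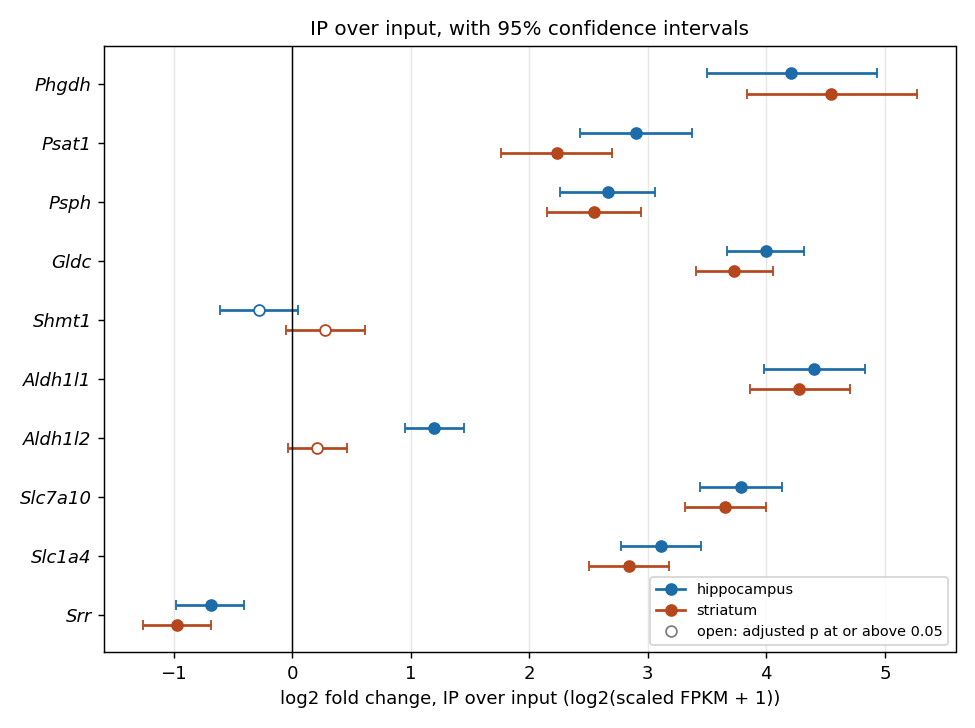
IP over input for the 10 genes. The x axis is the log2 fold change on log2(scaled FPKM + 1), bars are 95% confidence intervals from the limma fit, and open circles did not pass adjusted p under 0.05. The 7 genes that rose in both regions lie between 2.23 and 4.55, Srr lies below 0 in both, and Aldh1l2 is the gene whose regional intervals are separate.

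**Figure D3:**
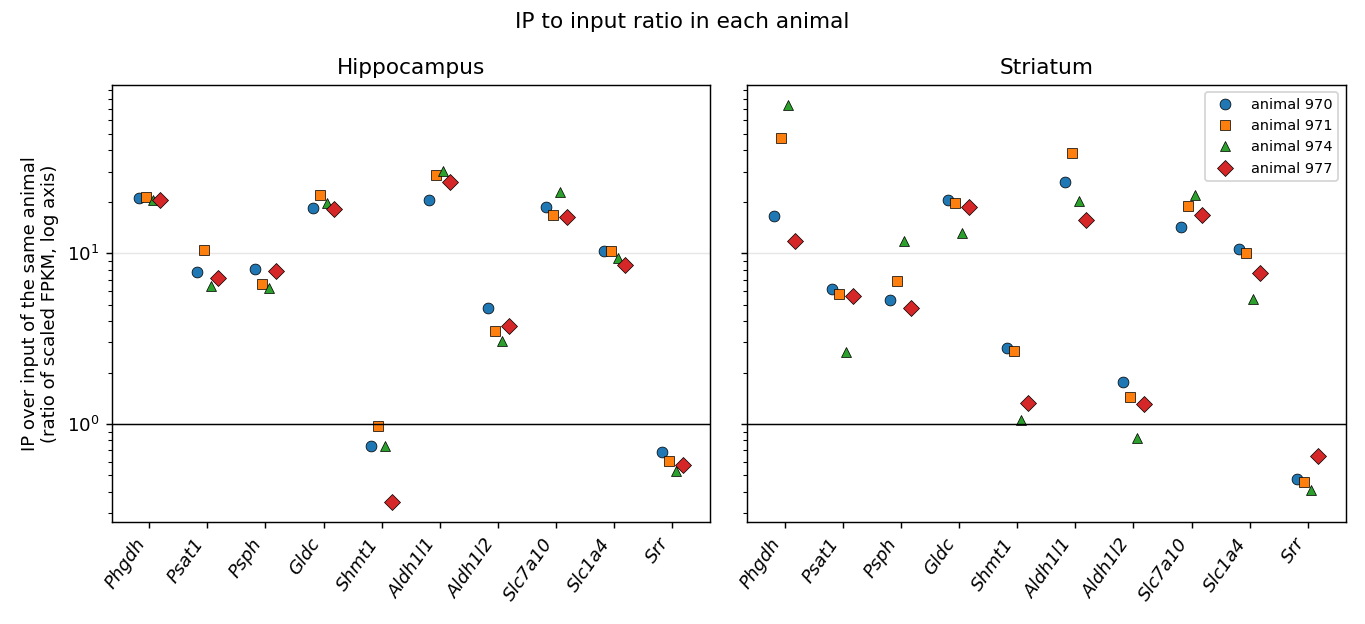
The ratio of IP to input within each animal. The y axis is the ratio of scaled FPKM on a log scale, with a symbol for each of the 4 animals, and the line marks 1. Phgdh spans 11.8 to 73.9 in striatum and 20.4 to 21.3 in hippocampus, and Srr is below 1 in every animal.

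Set by level, the 10 genes kept nearly the same order in the IPs of both regions. In hippocampal IP the means were 162 for Phgdh, 159 for Psat1, 111 for Aldh1l1, 84.4 for Gldc, 79.3 for Slc1a4, 51.0 for Slc7a10, 46.4 for Psph, 11.2 for Srr, 3.42 for Aldh1l2 and 0.799 for Shmt1. The values overlapped between Phgdh and Psat1, between Gldc and Slc1a4, and between Slc7a10 and Psph. In striatal IP Psat1 (196) and Phgdh (159) were again highest and overlapped, and Slc1a4 (53.5), Gldc (49.9), Slc7a10 (41.8) and Psph (39.3) each overlapped the next. In the inputs Psat1 and Srr led, at 20.6 and 18.6 in hippocampal input and 42.8 and 24.3 in striatal input, and overlapped in both.

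The next question was whether astrocyte RNA of these genes differs between the regions. Between the IPs, 3 of the 10 genes were lower in striatum (Aldh1l2, Gldc and Slc1a4) and none was higher, against 5.34% of all tested genes that were lower, 7.19% that were higher and 12.5% in either direction. The median log2 fold change of the 10 was -0.17, and that of all tested genes -0.02. Aldh1l2 averaged 1.52 ± 0.273 in striatal IP and 3.42 ± 0.328 in hippocampal IP (SD, n = 4 each), a log2 fold change of -0.82 with adjusted p = 0.000162. Gldc averaged 49.9 ± 10.7 in striatal IP and 84.4 ± 9.42 in hippocampal IP, at -0.76 with adjusted p = 0.00272. For both, every striatal IP lay below every hippocampal IP, a separation seen for 19.4% of tested genes. Slc1a4 averaged 53.5 ± 12.5 in striatal IP and 79.3 ± 12.4 in hippocampal IP, at -0.57 with adjusted p = 0.0254. Its groups overlapped, the 65.2 of the striatal IP of animal 970 being above the 64.3 of the hippocampal IP of animal 974. Leaving out any of 5 of the 8 IP libraries ended the call for Slc1a4, with values of -0.44 to -0.58 and adjusted p of 0.0541 to 0.103: the hippocampal IPs of 970, 971 and 977 and the striatal IPs of 974 and 977.

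The other 7 genes did not pass between the IPs. Their log2 fold changes were between -0.29 for Slc7a10 (95% interval -0.64 to 0.05) and 0.28 for Psat1 (-0.19 to 0.76). For Phgdh the value was -0.03 (-0.75 to 0.69), and 0.13 without scaling. One estimate of the spread serves all 4 groups, and the SE of this value was 0.34 with all libraries and 0.09 without the striatal inputs of animals 971 and 974. Of the astrocyte markers 5 of 8 were lower in striatal than in hippocampal IP, with a median of -0.61, and 5 of 8 oligodendrocyte markers were higher, with a median of 1.21. The summed oligodendrocyte level was 92.1 to 134 in striatal IP and 87.5 to 92.6 in hippocampal IP. Their part in the results was not tested. Within a library, the ratio of Gldc to Aldh1l1 was 0.438 to 0.576 in striatal IP and 0.749 to 0.787 in hippocampal IP, without overlap.

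Between the inputs, Psat1 was higher in striatum and Shmt1 and Gldc were lower, against 18.4% of all tested genes that were higher, 17.5% that were lower and 35.9% in either direction. Psat1 averaged 42.8 ± 17.5 in striatal input and 20.6 ± 3.49 in hippocampal input, a log2 fold change of 0.96 ± 0.22 with adjusted p = 0.00343. Gldc averaged 2.80 ± 0.503 in striatal input and 4.35 ± 0.648 in hippocampal input, at -0.50 with adjusted p = 0.0189. Shmt1 averaged 0.526 ± 0.297 in striatal input and 1.17 ± 0.135 in hippocampal input, at -0.52 with adjusted p = 0.0160, but it was tested only because of its level in hippocampal input and its value supports nothing. For Psat1 and Gldc the groups did not overlap, as for 33.5% of tested genes. Those of Shmt1 did not overlap either, but the filter kept this gene through its hippocampal inputs alone. Srr, at 24.3 ± 5.33 in striatal input and 18.6 ± 0.292 in hippocampal input, missed the threshold (0.34, adjusted p = 0.0600), and passed without the striatal input of animal 977 (0.42, adjusted p = 0.00967). Cell type markers also differed between the inputs. Of the oligodendrocyte markers 6 of 8 were higher in striatal input, with a median of 0.99 and a summed level of 367 to 451 in striatal input against 162 to 188 in hippocampal input. Of the neuron markers 3 of 8 were lower, with a median of -0.53, and of the astrocyte markers 2 of 8 were lower, with a median of -0.24. Higher were 3 of 8 microglia markers and 2 of 5 endothelial markers, and the part of these cell types in the results was not tested.

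The striatal inputs of animals 971 and 974 were the lowest of their group in Phgdh and the highest in Psat1, and the values of both genes changed without them. With all libraries Phgdh was at -0.37 (adjusted p = 0.411). Without these inputs Psat1 stood at 0.48 (adjusted p = 0.0597) and Phgdh at 0.43. Leaving out the extreme values of a gene moves it in a direction known beforehand, so these are descriptions and not tests. The summed astrocyte markers were 605 and 625 in these libraries, and 609 and 524 in the striatal inputs of animals 970 and 977. The summed neuron markers set them apart, at 1917 and 1999 in animals 971 and 974, and 1602 and 1433 in animals 970 and 977. So did the summed mural markers, at 54.7 and 49.8 in animals 971 and 974, and 29.8 and 22.9 in animals 970 and 977. Endothelial sums were also higher in animals 971 and 974, and oligodendrocyte precursor sums lower. The depth of these 2 striatal inputs was the lowest of all, at an estimated 5790000 and 4150000 fragments. The part of cell types or depth was not tested.

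**Figure D4:**
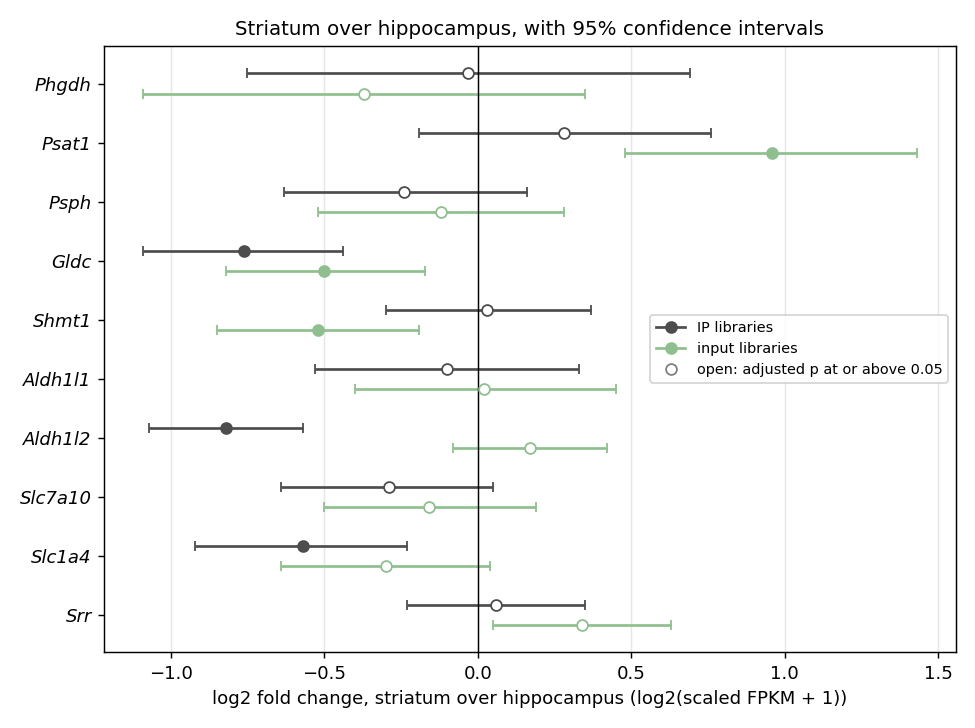
Striatum over hippocampus for the 10 genes, in IP and in input. The x axis is the log2 fold change on log2(scaled FPKM + 1), bars are 95% confidence intervals from the limma fit, and open circles did not pass adjusted p under 0.05. Aldh1l2, Gldc and Slc1a4 are lower in striatal IP, Psat1 is higher in striatal input, and Gldc lies below 0 in both.

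The difference between regions in IP over input was tested as an interaction. Aldh1l2 alone among the 10 genes passed, at -0.99 ± 0.17 with adjusted p = 0.000745, lower in striatum in all 4 animals, against 6.94% of all tested genes that were lower, 6.64% that were higher and 13.6% in either direction. Without the striatal inputs of animals 971 and 974 it was -0.84, with adjusted p = 0.00414. Gldc was at -0.27 (95% interval -0.72 to 0.19), and Slc1a4 at -0.27 (-0.76 to 0.21). Psat1 was at -0.67 (-1.34 to -0.00), with adjusted p = 0.175, and Phgdh had the widest interval, -0.67 to 1.35 around 0.34.

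Around the 10 genes, 76 further genes of the same and neighbouring pathways were examined, of which 58 passed the filter on low values. Of these, 29 were higher in IP than in input and 15 lower in hippocampus, and 27 were higher and 15 lower in striatum, against the 31.8% higher and 33.4% lower in hippocampus and 32.6% higher and 32.5% lower in striatum of all tested genes. The counts of each list below are to be read against these shares, and nothing is called particular to a list. The median log2 fold change of the 58 genes was 0.45 in hippocampus and 0.35 in striatum, against 3.01 and 2.69 for the 10 genes. In what follows, values are log2 fold changes of IP over input in hippocampus and then in striatum, and those without a p passed the test in both regions.

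Among enzymes that convert serine, glycine or threonine, Sdsl, a serine dehydratase-like enzyme, rose by 2.80 and 2.73 and Gcat, a glycine C-acetyltransferase, by 1.42 and 1.45. Sds, the serine dehydratase, stood at 0.38 and 0.63 and did not pass. Of 14 tested folate enzymes, including Aldh1l1 and Aldh1l2, 8 rose and 2 fell in hippocampus, and 6 rose and 2 fell in striatum, against 31.8% and 32.6% of all tested genes that rose. Mthfd1, a trifunctional cytosolic folate enzyme, rose by 2.04 and 1.49. Atic and Gart, which use formylfolate in purine synthesis, rose by 1.86 and 2.28 and by 1.21 and 1.04. Ggh, which removes glutamates from folate, rose by 1.86 and 1.36. The mitochondrial Mthfd2 and Mthfd2l, named after their values were seen, did not pass in either region, at -0.27 and -0.09 and at 0.21 and 0.30. Of 3 tested folate transporters, Slc46a1, the proton-coupled one, rose by 1.64 and 2.30, and Slc19a1, the reduced folate carrier, stood at 0.08 in hippocampus (adjusted p = 0.690) and rose by 0.48 in striatum.

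Downstream of serine, 4 of 6 tested genes of transsulfuration and the methionine cycle rose in hippocampus and 3 of 6 in striatum, against 31.8% and 32.6% of all tested genes. Cbs, which joins serine to homocysteine, was at 46.9 ± 6.94 in hippocampal IP against 2.21 ± 0.317 in hippocampal input, and at 34.3 ± 7.09 in striatal IP against 1.64 ± 0.618 in striatal input (SD, n = 4 each), log2 fold changes of 3.89 and 3.75. Cth, which completes cysteine synthesis, rose by 2.59 and 2.83, and Ahcyl1 by 2.91 and 2.39. Mat2b, a regulatory subunit of methionine adenosyltransferase, fell by 0.44 and 0.80. Mat2a, the catalytic subunit, rose by 0.65 in hippocampus and stood at -0.10 in striatum (adjusted p = 0.434), and Ahcy, which splits adenosylhomocysteine, stood at 0.10 and 0.08 and did not pass. Both were named after their values were seen. Of 5 tested enzymes that use serine for lipids, Ptdss1 and Ptdss2, which make phosphatidylserine, rose by 1.18 and 1.18 and by 0.65 and 0.66, and Sptlc1, of serine palmitoyltransferase, rose by 0.85 and 0.92. Its partner Sptlc2 stood at -0.27 in hippocampus (adjusted p = 0.168) and fell by 0.55 in striatum.

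Of 11 tested serine and glycine transporters, including Slc7a10 and Slc1a4, 6 rose and 4 fell in hippocampus, and 5 rose and 4 fell in striatum, against 33.4% and 32.5% of all tested genes that fell. Slc38a2, a sodium-coupled neutral amino acid transporter, fell by 1.45 and 1.58, and Sfxn3, of the sideroflexin family, fell by 1.18 and 1.69. Sfxn1, a mitochondrial serine transporter, rose by 1.5 in hippocampus and fell by 0.43 in striatum. Slc6a9, the glycine transporter GlyT1, was named after its values were seen. It averaged 47.5 ± 14.7 in striatal IP and 22.2 ± 4.29 in hippocampal IP (1.02, adjusted p = 0.0332). The groups overlapped, at 26.8 in the striatal IP of animal 974 and 26.9 in the hippocampal IP of animal 971. Slc6a9 was the only 1 of the 58 genes higher in striatal IP, against 7.19% of all tested genes. The 3 of the 58 that were lower there, against 5.34% of all tested genes, were Slc38a1 (-1.17), Grin3a (-0.72) and Sfxn1 (-0.46). They were also named after their values were seen.

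Of 9 tested subunits of NMDA and glycine receptors, 6 fell and 2 rose in each region, against 33.4% of all tested genes that fell in hippocampus and 32.5% in striatum. In NMDA receptors the site for D-serine or glycine is on the Grin1 and Grin3 subunits, and the Grin2 subunits bind glutamate. Grin1, Grin2a and Grin2b, NMDA receptor subunits, fell by 2.40, 2.21 and 2.49 in hippocampus and by 1.28, 1.41 and 1.61 in striatum. Grin2c, another NMDA receptor subunit, rose, to 30.5 ± 4.66 in hippocampal IP against 2.52 ± 0.560 in hippocampal input, and to 30.5 ± 7.89 in striatal IP against 2.77 ± 0.626 in striatal input (SD, n = 4 each), log2 fold changes of 3.16 and 3.05. Ddo, an oxidase of acidic D-amino acids, rose by 2.86 and 2.79. Dao, which breaks down D-serine and was named after its values were seen, did not pass the filter, with a highest deposited value of 0.373 FPKM. Of 6 tested genes of the amino acid response, Asns, asparagine synthetase, fell by 2.74 and 2.02, Atf5, a transcription factor, rose by 0.82 and 1.42, and Sesn2, a stress-induced gene, stood at 0.23 in hippocampus (adjusted p = 0.162) and rose by 1.37 in striatum. Chac1, an enzyme that breaks down glutathione, fell by 1.15 in hippocampus and stood at -0.22 in striatum (adjusted p = 0.406).

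**Figure D5:**
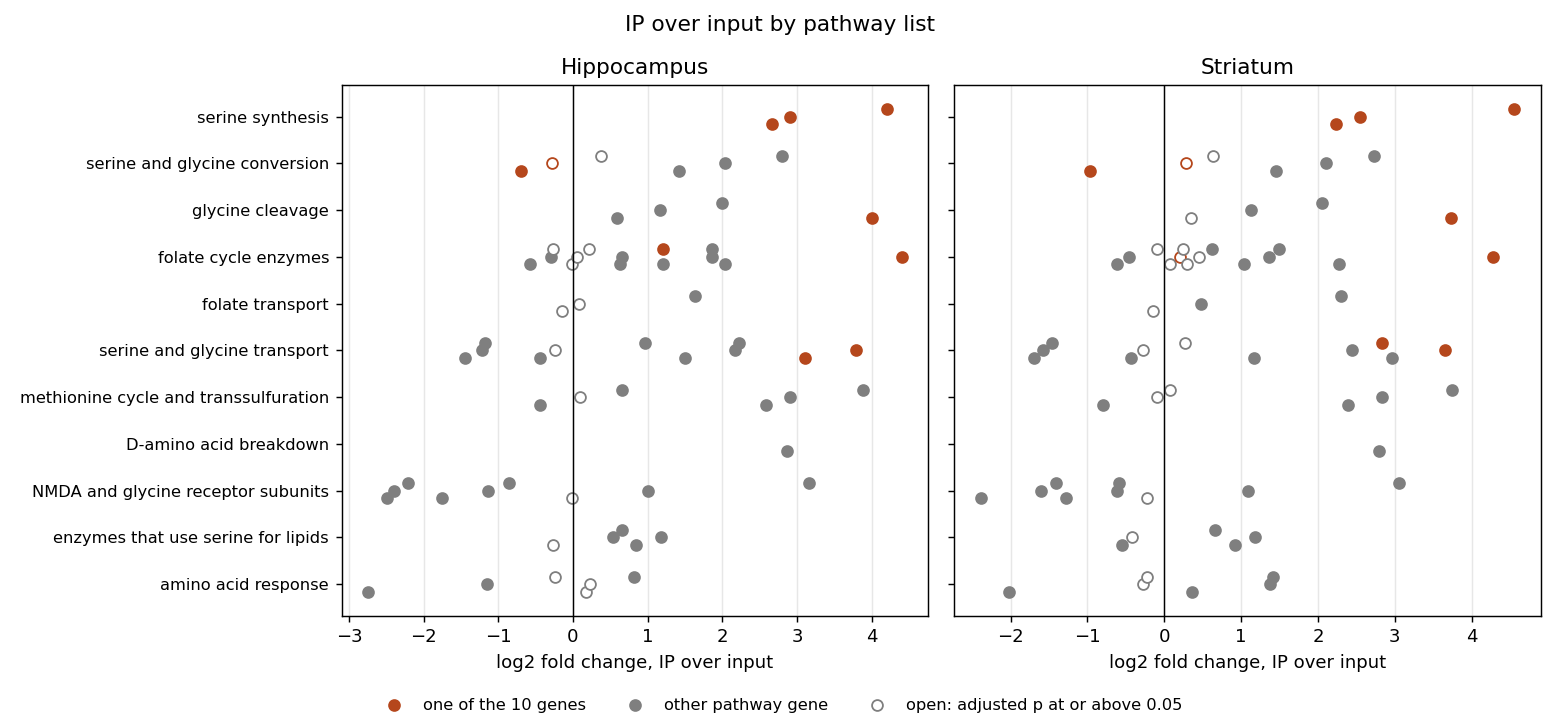
IP over input for the tested genes of the 11 pathway lists. The x axis is the log2 fold change, each circle is a gene, the 10 genes are in orange, and open circles did not pass adjusted p under 0.05. The 3 genes of serine synthesis and all 4 of glycine cleavage lie above 0 in both regions, and most receptor subunits lie below.

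The genes most like each member over the 16 libraries were named by Pearson correlation of log2 levels. The libraries share animals and the split into IP and input, so the values are descriptions. Slc1a4 and Gldc were each other's nearest gene (r = 0.998). Aldh1l1 was nearest to Plcb3 (0.998), Slc7a10 to Psd2 (0.998), Phgdh to Pcdhgc3 (0.996), Psph to Oplah (0.996) and Psat1 to Stxbp3a (0.990). Aldh1l2 was nearest to Prom1 (0.964), Srr to Man1a2 (0.988) and Shmt1 to Pex11g (0.856), the weakest of the 10.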

How the data were processed

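Expression was taken from 16 tables, 1 per library, whose deposited values are read here as FPKM (fragments normalised for gene length and depth). The labels do not name the unit: low values of single-transcript genes, multiplied by length, fell on whole-fragment steps for 46.3% to 62.4% of genes (tolerance 0.02 fragments), and these steps gave the estimated depths. Per the submitters' processing notes, bcl2fastq 2.17, STAR and HTSeq were used with build mm10. The gene annotation and the formula of the values are not given in the sources used here. Per the labels' protocols, paired-end libraries were made from 100 ng of RNA with a Nugen Ovation V2 kit. Of 24060 rows, 27 labels had become dates and were left out. Coordinates are from GENCODE vM21 (GRCm38), which held 94.8% of labels.

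A gene was tested if 4 or more libraries reached 1 FPKM, which held for 13449. The test used log2(FPKM/f + 1), where f is a trimmed-mean factor (30% of log ratios and 5% of levels trimmed), fitted with limma 3.58.1 in R 4.3.3. The fit had 4 group means, 12 residual degrees of freedom and trended robust variances, and p-values were adjusted by the Benjamini-Hochberg method over all tested genes, with calls under 0.05. The procedure was run on simulated data with known changes in striatal IP alone. That simulation held no shift between IP and input and no pairing by animal, so it does not cover them. Intervals are at 95%. The depth limits the low values, and no interval from counts is given, because the values used are not counts. Promoters are from RefSeq (GRCm38.p6), and figures were drawn with matplotlib 3.10.9 in Python 3.11.15.

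The 10 genes, the pathway lists and the markers were chosen with earlier results of these data known. Named were the 10 genes, up to 4 genes per list with the smallest adjusted p in either IP over input comparison, of the 3 genes most like each of the 10 the nearest, and Gfap, Crym and Rpl22 as checks of the labels. Exceptions are stated in the text, or are pathway genes below the filter or whose IP over input differed between regions. Libraries with 1 number came from the same animal, which pairs them. Deviations from the group mean correlated at 0.310 to 0.533 between the IPs of an animal, and at -0.008 to 0.320 for the other pairs of kinds. The alternatives were the animal as a replicate block, a pseudocount of 0.1, no filter or 5 FPKM, no scaling or median-of-ratios scaling, and libraries left out.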

Additional observations from a re-analysis of the deposited data

Results flagged for a closer look

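No library of the 10 genes stood apart from the others of its group by Dixon's criterion in any of 40 groups of 4 libraries, at the 95% critical value. The criterion weighs a single extreme value, so it could not flag libraries that were low together. The striatal inputs of animals 971 and 974 were such a case for Phgdh. Listed here are genes whose IP over input differed between striatum and hippocampus by the interaction test. Of the 58 neighbouring pathway genes tested, 5 were higher in striatum and 4 lower. Of all tested genes 6.64% were higher and 6.94% lower, so nothing particular to these pathways is read from the list. Aldh1l2 differed by -0.99. Among neighbouring pathway genes, lower in striatum were the transporters Slc38a1 (-1.22) and Sfxn1 (-1.93), the methionine adenosyltransferase gene Mat2a (-0.75) and Sptssa (-0.95), a small subunit of serine palmitoyltransferase. Higher in striatum were the transporters Slc38a7 (0.71) and Slc36a1 (0.94), the NMDA receptor subunits Grin1 (1.12) and Grin2b (0.88), and Sesn2 (1.14). Of the neuron markers, 2 of 8 were also higher in this difference and none was lower, with a median of 0.47, and their part in the values of Grin1 and Grin2b was not tested. For Sfxn1 the means were 35.4 ± 3.74 in striatal IP against 48.8 ± 9.98 in striatal input, and 49.0 ± 4.17 in hippocampal IP against 16.7 ± 1.55 in hippocampal input (SD, n = 4 each). For Slc38a1 they were 2.26 ± 0.663 in striatal IP against 7.87 ± 0.891 in striatal input, and 6.34 ± 1.53 in hippocampal IP against 7.56 ± 0.339 in hippocampal input. For Sesn2 they were 2.79 ± 0.299 in striatal IP against 0.482 ± 0.265 in striatal input, and 2.76 ± 0.405 in hippocampal IP against 2.21 ± 0.389 in hippocampal input. Without the striatal inputs of animals 971 and 974, Slc36a1 (0.67, adjusted p = 0.0647), Grin1 (0.89, adjusted p = 0.112), Grin2b (0.71, adjusted p = 0.145) and Sptssa (-0.45, adjusted p = 0.141) no longer passed, and the other 6 did.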

How the results depend on the processing

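Of 1120 values of the 10 genes under the alternatives, 1102 stayed on their side of the threshold, 11 newly passed in the same direction, 6 no longer passed and 1 changed sign and passed: Phgdh between the inputs, at 0.43 without the striatal inputs of animals 971 and 974, its lowest, which is no test. Of the 1102, 39 that did not pass in either setting changed sign, 9 of them without scaling and the others with libraries left out. Those that no longer passed were Psat1 there and Slc1a4 between the IPs. Newly passing were Shmt1 in 7 cases, Slc1a4 between the inputs in 3 and Srr between the inputs in 1. Aldh1l2 and Shmt1 left the test at a minimum of 5 FPKM, and Shmt1 did when any hippocampal input was left out. With the replicate block by animal no call of the 10 genes changed, Aldh1l2 keeping its interaction of -0.99 (adjusted p = 0.00162), and the genes called were 8977 and 8944 for IP over input in hippocampus and striatum, 2008 between the IPs, 5222 between the inputs and 2036 for the interaction.

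Leaving out 1 library gave 8110 to 9372 genes called for hippocampal IP over input, 8042 to 8814 for striatal, 1141 to 2051 between the IPs, 3699 to 5952 between the inputs and 1307 to 3023 for the interaction, where 3023 came without the striatal input of animal 977, against 1826 with all libraries; the cause was not tested. Without scaling, the median of all genes moved to -0.51 in hippocampus and -0.25 in striatum for IP over input, and to 0.11 between the IPs, -0.11 between the inputs and 0.25 for the interaction. The split of higher and lower calls was then 2488 and 7103 in hippocampus (main 4281 and 4494), 3142 and 5564 in striatum (4380 and 4370), 1002 and 442 between the IPs (967 and 718), 1902 and 2961 between the inputs (2479 and 2347), and 1596 and 614 for the interaction (893 and 933). Low depth limits Shmt1 in every group, and Phgdh and Slc7a10 in the striatal input of animal 974.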

Other observations

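Of the 76 neighbouring pathway genes, 18 did not pass the filter on low values. Bhmt, which remethylates homocysteine from betaine, Slc6a5, the neuronal glycine transporter GlyT2, and Sptlc3 were listed at 0 in 13 of 16 libraries. Folr1, a folate receptor, was listed at 0 in 10, with a highest value of 0.0605 FPKM. Tyms, thymidylate synthase, and Mthfd1l, a mitochondrial formate-releasing enzyme, reached 1 FPKM in no library.

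In striatal IP, animals 974 and 977 were lower than animals 970 and 971 for 8 of the 10 genes on the scaled values, all but Shmt1 and Srr, and for 4 of them on the deposited values: Aldh1l1, Slc1a4, Gldc and Slc7a10. The share of all tested genes with the same order was not counted, so nothing particular to the 10 genes is read from it. The summed astrocyte markers of these libraries were 6455 and 7649 in animals 974 and 977 and 11016 and 11976 in animals 970 and 971, and the summed neuron markers were 125 and 121, and 71.9 and 76.7. In the same libraries Srr was at 11.5 and 11.6 in animals 974 and 977, and 10.4 and 13.3 in animals 970 and 971.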
